A study of Mus musculus with 19 samples.

Results

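Chemokines and their receptors were described across sorted cells of the mouse anterior prostate. Members were the genes whose symbol in the deposited tables follows the standard names of the Ccl, Cxcl, Cx3cl and Xcl ligands, the Ccr, Cxcr, Cx3cr and Xcr receptors and the atypical receptors Ackr1 to Ackr4. The rule uses names and no measured value. It took 60 of 24343 gene symbols, of which 38 were ligands and 22 were receptors. In 28 members no library reached 1 FPKM (fragments per kilobase of transcript, scaled to the mapped fragments of the library, and so a level per transcript length), and Ccl1 and Ccl26 were listed at 0 in every library.

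Basal, luminal and stromal cells had been isolated by flow sorting from 2 sources of mice, to ask what ablation of Lgr5-expressing stromal cells changes. One source was Lgr5-DTR-eGFP mice given diphtheria toxin (3 basal, 3 luminal and 4 stromal libraries). In these mice the Lgr5 locus drives the human diphtheria toxin receptor and a green fluorescent protein, so that the toxin kills Lgr5-expressing cells. The other was wild type mice (3 libraries of each population), and the C57BL/6 mice named in the labels were bought from a supplier while the Lgr5-DTR-eGFP mice came from another laboratory. The labels give no age, toxin dose or time, and do not say whether the wild type mice received toxin, so the allele, the toxin and the source of the animals cannot be told apart. They do not say which libraries came from separate animals, so every p-value measures the spread between libraries, which may be technical. The groups are called Lgr5-DTR and wild type below.

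Chemokines are small secreted or membrane-tethered proteins that guide the movement of leukocytes and other cells through receptors coupled to G proteins. CXC chemokines with a Glu-Leu-Arg motif before the first cysteines (the ELR group, Cxcl1, Cxcl2, Cxcl3, Cxcl5 and Cxcl15) attract neutrophils through Cxcr2, whereas Cxcl9, Cxcl10 and Cxcl11 are induced by interferon and act on Cxcr3 of T cells. Cxcl12, Cxcl13, Ccl19 and Ccl21 keep cells in place or organise lymphoid tissue, and the atypical receptors bind chemokines without the usual signal and remove them.

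The promoters of the ELR genes Cxcl1, Cxcl2 and Cxcl3 are shown first, with that of Cxcl10, because in Lgr5-DTR basal cells the first 3 lay above the wild type values and Cxcl10, in 2 of 3 libraries, below them. The RefSeq table used here (build GRCm38.p6) held promoters of 45 of the 60 members. The ELR gene Cxcl15 is also in it, and its window holds neither of the motifs below. The table had no entry for Cxcl5, Cxcl16, Ccl2, Ccl7 or Ccl11. Each line gives the 200 bases before the annotated start, 5′ to 3′ on the strand of the gene. Capitals mark matches to an NF-kB type motif (GGGA and TTCC with 2 bases of any kind between them) and to TGANTCA, an AP-1 type motif, both searched on both strands.

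Cxcl1 (chr5:90891045-90891244, + strand): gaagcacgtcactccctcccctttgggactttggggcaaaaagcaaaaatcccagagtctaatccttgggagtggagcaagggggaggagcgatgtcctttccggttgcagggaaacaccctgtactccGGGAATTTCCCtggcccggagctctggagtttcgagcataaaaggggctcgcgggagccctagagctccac
Cxcl2 (chr5:90903699-90903898, + strand): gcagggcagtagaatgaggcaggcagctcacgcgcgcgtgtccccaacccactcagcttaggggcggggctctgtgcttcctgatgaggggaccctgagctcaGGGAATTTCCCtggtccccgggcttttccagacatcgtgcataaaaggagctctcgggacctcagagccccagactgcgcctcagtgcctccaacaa
Cxcl3 (chr5:90785901-90786100, + strand): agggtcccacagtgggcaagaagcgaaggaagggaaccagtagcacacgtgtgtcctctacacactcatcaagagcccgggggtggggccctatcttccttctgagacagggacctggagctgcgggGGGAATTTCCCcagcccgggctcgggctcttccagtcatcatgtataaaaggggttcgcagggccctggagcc
Cxcl10 (chr5:92348890-92349089, - strand): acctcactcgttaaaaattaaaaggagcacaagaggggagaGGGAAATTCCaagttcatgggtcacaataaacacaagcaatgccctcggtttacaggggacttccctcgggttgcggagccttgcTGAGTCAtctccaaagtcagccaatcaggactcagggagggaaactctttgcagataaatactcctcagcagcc

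Cxcl1, Cxcl2 and Cxcl3 hold the same run, in which the match on one strand overlaps the match on the other. It begins 71 bases before the start in Cxcl1, 97 in Cxcl2 and 73 in Cxcl3. The Cxcl10 match to the NF-kB type motif begins 159 bases before the start and is followed by an AP-1 type match. Over windows from 250 bases before to 50 bases after the start, the NF-kB type motif was in 482 of 32851 promoters (1.47%) and in 6 of the members' 52 promoters (11.5%), those of Ccl1, Ccr3, Cxcl1, Cxcl2, Cxcl3 and Cxcl10. Of these, Cxcl1, Cxcl2 and Cxcl3 are neighbours in the genome, so the 6 are not independent, and Ccl1 and Ccr3 reached 1 FPKM in no library. TGANTCA was in 7.81% of all promoters and 17.3% of the members'. The windows of Cxcl12, Cxcl13, Cxcl14, Cx3cl1 and Ccl19 held neither. The matches are letters in a window and were not tied to binding.

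Depth, as deposited coverage times transcript length, was 5.26 to 9.38 gigabases per library, and 9209 to 10819 genes reached 1 FPKM. Lgr5 fell in Lgr5-DTR stromal cells, to 0.916 ± 0.338 FPKM (SD, n = 4) from 44.2 ± 29.1 (SD, n = 3), a log2 difference of -4.40 (limma, adjusted p = 0.000318). Lgr5 passed the filter of the test only through the wild type group, so it could be called only as lower. An altered Lgr5 allele and a loss of Lgr5 cells cannot be told apart in this value. In each population its own markers led: summed basal epithelial markers were 5447 to 8602 FPKM in basal cells and 14.6 to 321 elsewhere, and summed fibroblast markers 2744 to 5643 in stromal cells. The basal cells also held luminal epithelial markers at a sum of 3557 to 4793 FPKM, and Dcn, a fibroblast proteoglycan, at 313 to 880.

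Where chemokines were expressed was read from the wild type libraries. Stromal cells carried the highest chemokine levels, with a summed ligand level of 2397 to 3870 FPKM per library, against 412 to 640 in basal and 83.7 to 106 in luminal cells, and the 3 ranges do not overlap. Stromal cells were led by Ccl2 (which attracts monocytes) at 925 ± 617 FPKM (SD, n = 3), Cxcl10 at 552 ± 225 and Ccl7 (which also acts on monocytes) at 551 ± 336. Basal cells were led by the membrane-tethered Cxcl16 at 139 ± 38.1, Cxcl10 at 127 ± 27.7 and Cxcl1 at 88.2 ± 68.2. Luminal cells were led by Cxcl16 at 16.7 ± 11.9, the membrane-tethered Cx3cl1 at 16.0 ± 3.74 and Cxcl1 at 13.7 ± 1.96. In each population these means differ by less than the spread between libraries, so the order among them is not fixed. Cxcl10 overlaps Art3 and Cxcl16 overlaps Zmynd15 in the annotation, so reads may be divided between the pairs by estimation and their values are less certain.

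**Figure D1:**
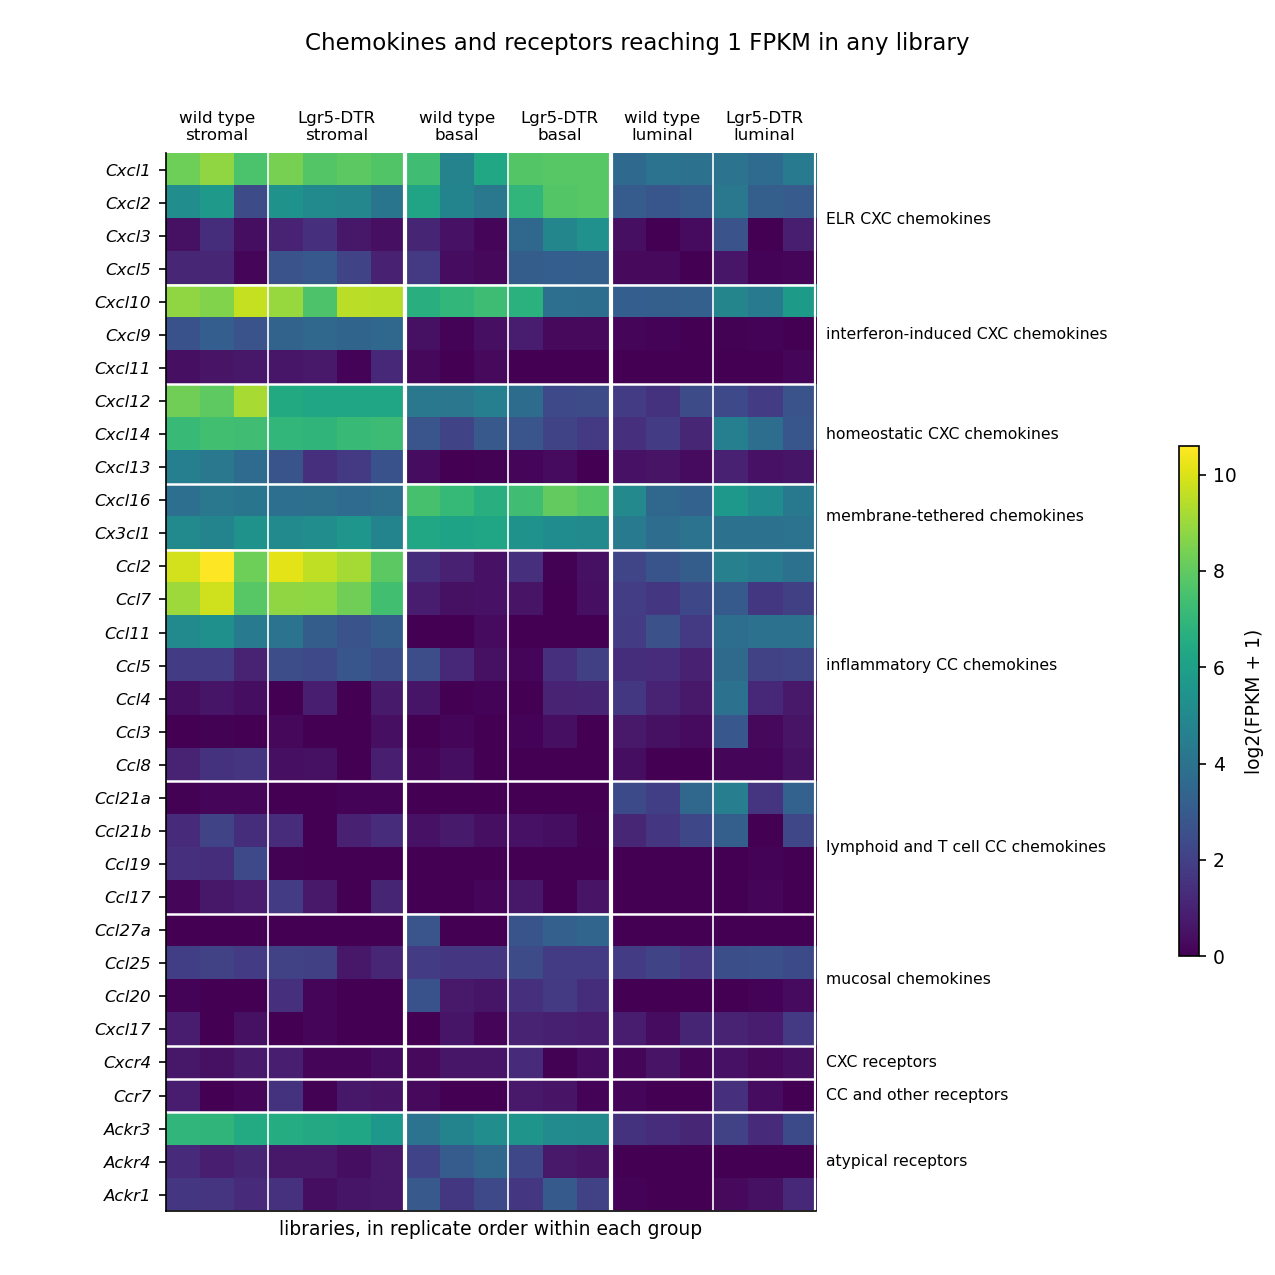
Level of the 32 members that reach 1 FPKM in any library, as log2(FPKM + 1) on the colour scale, with 1 column per library grouped by population and genotype and 1 row per gene grouped by role. By group mean, stromal columns of both genotypes are brightest for Ccl2, Cxcl10 and Ccl7, wild type basal columns for Cxcl16 and Lgr5-DTR basal columns for Cxcl1. The receptors are dark apart from Ackr3.

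With the genotype left aside, 13 of 22 tested members were higher and 4 lower in wild type stromal than basal cells (limma, Benjamini-Hochberg adjusted p under 0.05), where 29.2% of all genes were called higher and 27.8% lower. Ccl2 was 8.61 higher on the log2(FPKM + 1) scale in stromal cells (SE 0.51, adjusted p = 2.1e-07, limma), and Cxcl16 was lower by -3.03 (SE 0.37, adjusted p = 2.15e-05, limma). Against luminal cells 15 of 22 were higher and 1, Ccl21a, was lower, with 28.5% of all genes called higher and 39.3% lower. Cxcl12 differed by 6.53 (SE 0.30, adjusted p = 2.58e-09, limma) and Cxcl14, a skin and mucosal chemokine, by 5.82 (SE 0.24, adjusted p = 1.04e-09, limma). Between basal and luminal cells 9 of 22 were higher in basal and 5 lower, with 25.5% of all genes called higher and 36.8% lower. Calls were thus frequent among all genes in each pair of populations. Cxcl13, Cxcl9, Ccl19 and Ccl8 passed the filter only through the stromal libraries, so they could be called only as higher there. Ccl21a passed only through the luminal libraries and could be called only as higher in luminal cells.

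Receptors were scarce. Of 18 classical receptors only Cxcr4 and Ccr7 reached 1 FPKM in any library, and the highest value was 1.96 FPKM, for Ccr7 (a T cell and dendritic cell receptor) in Lgr5-DTR stromal replicate 1. None passed the filter of at least 3 libraries at 1 FPKM within a population, so no classical receptor was tested between genotypes. Of the 4 atypical receptors Ackr3, which binds Cxcl12, was the exception: it stood at 111 ± 19.6 FPKM (SD, n = 3) in wild type stromal, 25.8 ± 9.86 in basal and 1.56 ± 0.373 in luminal cells. Its level was above the next population by 2.12 (SE 0.27, adjusted p = 2.25e-05, limma) and then 3.33 (SE 0.27, adjusted p = 5.15e-07, limma). Ackr1 (the endothelial and erythrocyte scavenger) was highest in basal cells at 4.32 ± 2.19 FPKM. Ackr4, which removes Ccl19 and Ccl21, was 7.26 ± 3.78 there and listed at 0 in all luminal libraries, but it overlaps Acad11, so its values are uncertain. Ackr2 stayed at or under 0.240 FPKM.

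In stromal cells the ligands Cxcl12, Cxcl13, Ccl19 and Ccl11 fell in Lgr5-DTR mice, and no member was called higher. Of 21 members tested 4 were lower (limma, adjusted p under 0.05), where 1.10% of all 10689 genes were called lower and 0.0655% higher. The groups did not overlap for 2 higher and 5 lower members, against 1.80% and 9.39% of all genes. Of the lower ones Ccl19 and Ccl8 passed the filter only through the wild type group, which fixed their separation. The median member differed by -0.37 on the log2(FPKM + 1) scale and the median gene by -0.09, and 15 of 21 members were on the negative side. A lower level in sorted cells can be fewer cells of a type or less RNA per cell, which bulk libraries cannot tell apart.

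Cxcl12, the stromal ligand of Cxcr4 that retains stem and immune cells, was 84.38, 75.04, 74.45 and 73.73 FPKM in the 4 Lgr5-DTR stromal libraries. In wild type stromal cells it was 313, 249.8 and 590.2. Every wild type library was far above every Lgr5-DTR one, and the Lgr5-DTR libraries lay within a narrow band. The means were 76.9 ± 5.01 (SD, n = 4) and 384 ± 181 (SD, n = 3), and the log2 difference was -2.21 (SE 0.27, 95% interval -2.79 to -1.63, adjusted p = 0.00243, limma).

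Cxcl13, the B cell attractant of lymphoid follicles, was 5.689, 1.707, 2.499 and 5.368 FPKM in Lgr5-DTR and 22.9, 17.8 and 12.0 in wild type stromal cells. The groups do not overlap, and the log2 difference was -2.01 (SE 0.35, adjusted p = 0.0207, limma). Ccl11 (eotaxin, which attracts eosinophils) was 15.6, 7.75, 5.59 and 7.83 in Lgr5-DTR and 32.3, 38.5 and 19.6 in wild type, and differed by -1.65 (SE 0.33, adjusted p = 0.0406, limma). Lgr5-DTR replicate 1 is the highest of its group for Cxcl12, Cxcl13 and Ccl11. The Cxcl13 call was lost without Lgr5-DTR replicate 3 or any 1 wild type library (adjusted p up to 0.1298, limma), and the Ccl11 call without Lgr5-DTR replicate 2 or 3 or any 1 wild type library (up to 0.189, limma).

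Ccl19, the Ccr7 ligand made by lymphoid stroma, was 1.80, 1.59 and 4.12 FPKM in wild type stromal cells. In Lgr5-DTR stromal cells it was 0.0307 in replicate 1 and listed at 0 in the other 3 libraries. All 3 wild type libraries are above all 4 others, and outside the stroma only 1 library listed it above 0. The log2 difference was -1.73 (SE 0.27, adjusted p = 0.0108, limma). The gene passed the filter only through the wild type group, so it could be called only as lower, and its symbol covers 2 loci, between which reads may be divided by estimation.

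**Figure D2:**
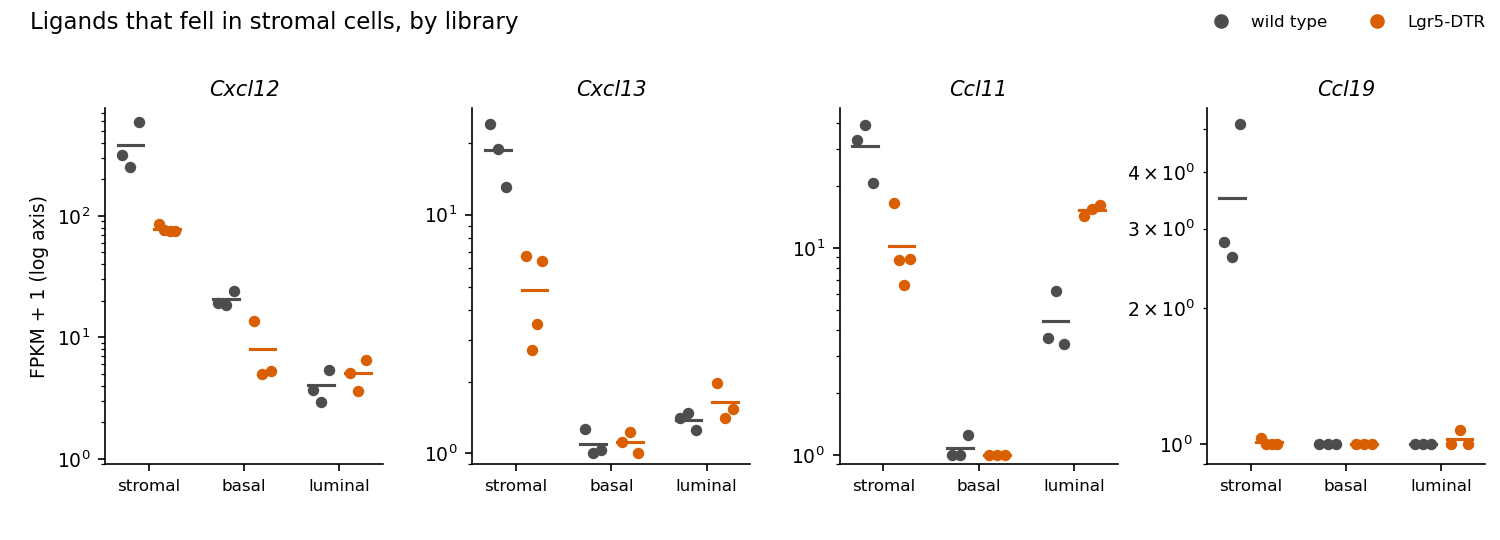
Values of the 4 ligands called lower in stromal cells, as FPKM + 1 on a log axis, with 1 point per library, a line at the group mean, wild type in grey and Lgr5-DTR in orange. Cxcl12 separates the stromal groups at 249.8 and 84.4 FPKM, and Ccl11 differs in the opposite direction in luminal cells.

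The most abundant stromal ligands varied more between libraries than between genotypes. Ccl2 was 1136, 754, 576 and 242 FPKM in Lgr5-DTR and 932, 1539 and 305 in wild type libraries, a log2 difference of -0.37 with a 95% interval of -1.88 to 1.15 (adjusted p = 0.920, limma). Cxcl10 differed by -0.15 (interval -1.15 to 0.85, adjusted p = 0.963, limma). Both intervals still allow a change of more than 1.5-fold either way. Cxcl14 was 119 to 151 FPKM in Lgr5-DTR and 140 to 165 in wild type, a difference of -0.21 (interval -0.60 to 0.18, adjusted p = 0.767, limma). Ackr3 was 94.0, 83.1, 74.4 and 48.5 in Lgr5-DTR against 124, 122 and 88.7 in wild type, and the groups overlap. Ccl5 (4.94 ± 0.815, n = 4, against 2.06 ± 0.883, n = 3) and Cxcl9 (10.2 ± 0.680 against 6.31 ± 1.43) are the 2 without overlap on the higher side, and neither passed the test. Ccl8, at 0.393 ± 0.351 against 1.66 ± 0.514, is the fifth without overlap on the lower side and did not pass either. It met the filter only through the wild type group, so its lack of overlap adds nothing.

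Fibroblast markers moved with these falls. Their sum was 2744 to 3381 FPKM in Lgr5-DTR and 5368 to 5643 in wild type stromal cells. Of 7 markers 3 were called lower: Dpt (dermatopontin, a matrix protein) fell to 48.4 ± 16.4 from 278 ± 30.2 FPKM, Dcn to 2417 ± 208 from 3964 ± 54.7 and Col3a1 to 156 ± 49.7 from 374 ± 90.8. The Dpt call was kept in 14 of 14 alternatives, that of Dcn in 4 and that of Col3a1 in 2 (adjusted p up to 0.293, limma). Summed smooth muscle markers were 310 to 431 against 203 to 295. The part of these shifts in the chemokine falls was not tested.

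In basal cells the neutrophil-attracting ELR ligands rose in Lgr5-DTR mice, while Cx3cl1 and Cxcl12 fell. Of 5 ELR members 4 were tested and 3 passed the test, all higher: Cxcl3, Cxcl2 and Cxcl5. The genes lie in a cluster on chromosome 5 (mm10) from Cxcl5 at 90759298 to Cxcl2, whose end is at 90905938. Over all members 3 of 16 were higher and 2 lower, where 6.50% of 9755 genes were called higher and 4.46% lower. The groups did not overlap for 4 higher and 2 lower members, against 17.5% and 13.7% of all genes. The median member differed by 0.26 and the median gene by 0.02.

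Cxcl3 was 10.5, 28.3 and 40.0 FPKM in Lgr5-DTR and 1.12, 0.413 and 0.104 in wild type basal cells. The lowest Lgr5-DTR library is above the highest wild type one, in which alone the gene exceeded 1 FPKM. The log2 difference was 4.01 (SE 0.45, 95% interval 2.97 to 5.05, adjusted p = 0.00221, limma). Cxcl2 was 125, 217 and 230.5 in Lgr5-DTR and 71.7, 26.1 and 17.9 in wild type, a ratio of means of 4.95 and a log2 difference of 2.47 (SE 0.46, adjusted p = 0.0143, limma). Cxcl5 was 7.66, 8.05 and 8.25 against 2.46, 0.268 and 0.168, and differed by 2.38 (SE 0.38, adjusted p = 0.00781, limma). For Cxcl5 the Lgr5-DTR libraries agree within 0.301 FPKM (SD) while the wild type ones spread.

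Cxcl1, the most abundant of the group, was 212, 225 and 229 FPKM in Lgr5-DTR basal cells and 161, 25.8 and 77.8 in wild type. The groups do not overlap, but the log2 difference of 1.67 (SE 0.54, adjusted p = 0.0872, limma) did not pass. Wild type replicate 1 was the highest of its group, and Lgr5-DTR replicate 1 the lowest of its group, for each of Cxcl1, Cxcl2, Cxcl3 and Cxcl5. Without that wild type library Cxcl1 passed as well (log2 difference 2.28, adjusted p = 0.0197, limma). The Cxcl2 call was lost without Lgr5-DTR replicate 2 or 3 or wild type replicate 2 (adjusted p up to 0.0938, limma). Cxcl3 and Cxcl5 were at 1 FPKM in only 1 wild type basal library each, so they passed the filter only through the Lgr5-DTR group and could be called only as higher. Cxcl15, the remaining ELR member, stayed under 1 FPKM in every library.

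**Figure D3:**
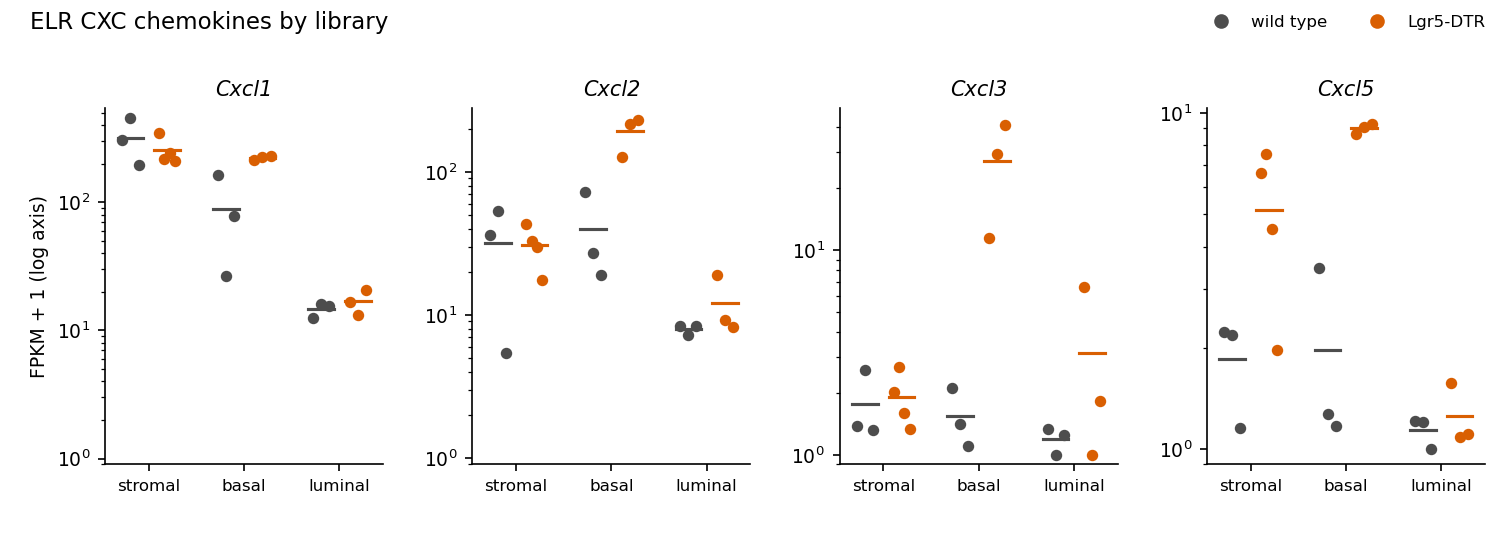
Values of the ELR ligands Cxcl1, Cxcl2, Cxcl3 and Cxcl5 as FPKM + 1 on a log axis, with 1 point per library, a line at the group mean, wild type in grey and Lgr5-DTR in orange. All 3 Lgr5-DTR basal libraries lie above all wild type basal libraries for each gene, while the stromal groups overlap.

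In stromal cells the same 4 ligands did not pass the test. Cxcl3 was 0.336 to 1.68 FPKM in Lgr5-DTR and 0.323 to 1.61 in wild type, and Cxcl5 was 0.967 to 6.53 against 0.152 to 1.23 (adjusted p = 0.212, limma). Cxcl5 was called higher in stromal cells without Lgr5-DTR replicate 4 and with the replicate block, so a stromal rise of it is not excluded. The genotype difference of Cxcl3 was smaller in stromal than in basal cells by -3.88 (SE 0.58, interaction in limma, adjusted p = 0.00177). It was the 1 member of 13 called in that interaction, where 2.09% of all genes were called in that direction and 0.891% in the other. Because Cxcl3 passed the basal filter only through the Lgr5-DTR group, the filter favoured this direction. Those of Cxcl1 (-1.94, adjusted p = 0.160, limma) and Cxcl2 (-2.05, SE 1.01) were not shown to differ between the populations.

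Cx3cl1 (fractalkine, a tethered ligand for monocytes and NK cells) was 41.5, 34.6 and 31.3 FPKM in Lgr5-DTR and 78.1, 69.9 and 73.5 in wild type basal cells. The groups are far apart against their spread, with a log2 difference of -1.03 (SE 0.15, adjusted p = 0.00495, limma). Cxcl12 was 12.6, 4.02 and 4.28 against 18.1, 17.6 and 23.0, and differed by -1.52 (SE 0.36, adjusted p = 0.0315, limma). That call was lost without any 1 library other than Lgr5-DTR replicate 1 (adjusted p up to 0.118, limma).

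Cxcl10 divided the Lgr5-DTR basal libraries. It was 108.5, 13.5 and 13.0 FPKM there and 99.5, 126 and 155 in wild type, so replicate 1 lay within the wild type range and the other 2 far under it. The log2 difference of -2.16 (SE 0.71, adjusted p = 0.0895, limma) did not pass, and Cxcl10 was called lower when Lgr5-DTR replicate 1 was left out (-3.14, adjusted p = 7.92e-06, limma). Ackr4 was divided in the same way, at 3.89, 0.661 and 0.471 against 3.398, 7.414 and 10.96 FPKM. Dcn stood at 636, 313 and 330.0 FPKM in the same 3 Lgr5-DTR libraries and at 730 to 880 in wild type, and was called lower in Lgr5-DTR (adjusted p = 0.0446, limma), a call lost in 8 of 13 alternatives. Cxcl12, Cxcl10 and Dcn are each highest in Lgr5-DTR replicate 1 of the 3, and the part of stromal RNA in these values was not tested. The other tethered ligand, Cxcl16, was 163, 263 and 224 against 179, 134 and 103 FPKM and did not pass (log2 difference 0.65, adjusted p = 0.124, limma). Without Lgr5-DTR replicate 1 it was called higher (0.84, adjusted p = 0.0202, limma).

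Genes that induce or restrain these ligands were read from lists outside the name rule, against 6.50% of all basal genes called higher and 4.46% lower. Among 13 tested inducing cytokines and their receptors in basal cells 3 were higher and none lower: Il1a (interleukin 1 alpha) at 15.1 ± 5.69 against 1.59 ± 1.34 FPKM, its antagonist Il1rn at 52.7 ± 4.83 against 2.00 ± 1.57, and the receptor Il1r1 at 2.13 ± 0.437 against 0.453 ± 0.0461 (n = 3 each). Il1a and Il1r1 passed the filter only through the Lgr5-DTR group and could be called only as higher. Of 16 NF-kB factors, regulators and targets 2 were higher and 1 lower, close to the shares over all genes. Nfkbiz, a nuclear cofactor of NF-kB, rose to 47.3 ± 4.33 from 16.2 ± 2.06 and kept its call in 13 of 13 alternatives, as did Il1rn. Tnfaip3, an inhibitor of the pathway, was at 37.0 ± 1.41 against 19.6 ± 7.83 and Icam1, an adhesion molecule, at 165 ± 14.6 against 262 ± 40.7. The Tnfaip3 call was lost in 9 of 13 alternatives, among them without Lgr5-DTR or wild type basal replicate 2 or 3, and the Icam1 call in 8, among them without any 1 library other than Lgr5-DTR replicate 1. In stromal cells, where 0.0655% of all genes were called higher and 1.10% lower, none of the 16 tested genes of the NF-kB list and none of the 13 of the cytokine list was called in limma, and calls this rare leave little to read from lists of this size. The median log2 difference of the cytokine list was 0.44 in basal and -0.08 in stromal cells, and that of the NF-kB list 0.14 and 0.00, beside medians of 0.02 and -0.09 over all genes. Of 14 tested signal transducers in basal cells Jak2 and Ptk2 were higher and Stat3 lower, and of 12 proteases and carriers Mmp2 was lower, which is also near the shares over all genes. These calls were lost in 6 (Jak2), 7 (Ptk2), 4 (Stat3) and 8 (Mmp2) of 13 alternatives. Of 8 tested chemokine system genes outside the name rule Cmtm3, Cmtm7 and Cd74 were higher and Ccrl2, a non-signalling receptor for chemerin, was lower. The calls of Cmtm3, Cmtm7 and Cd74 were lost in 2, 5 and 7 of 13 alternatives and that of Ccrl2, which passed the filter only through the wild type group, in 4 of 9.

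Neutrophil markers were near 0 in the basal libraries. The 9 markers summed to 0.276 to 1.34 FPKM in Lgr5-DTR and 0.0893 to 2.48 in wild type, and S100a9 and Retnlg were listed at 0 in both groups. Macrophage markers summed to 20.7 to 29.7 against 16.6 to 25.5 FPKM. Of these, Lyz2 (4.05 ± 1.12 against 1.17 ± 0.315) and C1qc (1.28 ± 0.413 against 0.185 ± 0.211) were called higher, both having passed the filter only because of Lgr5-DTR libraries, and the calls were lost in 4 of 13 and 5 of 10 alternatives. The basal markers Krt15 (lost in 8 of 13) and Trp63 (lost in 1) were called lower, and the summed basal markers were 5447 to 5933 against 7638 to 8602 FPKM. Smooth muscle markers summed to 10.6 to 13.8 against 32.3 to 41.8, and of 3 tested Tagln, a smooth muscle actin-binding protein, fell to 7.36 ± 1.64 from 28.8 ± 5.54 (adjusted p = 0.00178, limma), a call kept in 13 of 13 alternatives. Fibroblast markers summed to 313 to 638 against 732 to 882, but these sums were nearly all Dcn. Of the 7 markers 6 stayed under 1 FPKM in every Lgr5-DTR and 5 in every wild type basal library. Besides Dcn, Col3a1 was called lower (adjusted p = 0.0384, limma), a call lost in 4 of 10 alternatives. It passed the filter only through the wild type group. Endothelial markers summed to 15.1 to 34.5 against 8.51 to 13.0, with none of 5 tested endothelial genes called. The part of these marker shifts in the chemokine changes was not tested.

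In luminal cells 4 ligands were called higher in Lgr5-DTR mice and none lower: Ccl11, Ccl2, Cxcl10 and Cxcl14. The summed ligand level was 155 to 271 FPKM per library in Lgr5-DTR and 83.7 to 106 in wild type. Of 17 members tested 4 were higher (limma, adjusted p under 0.05), where 2.62% of 10524 genes were called higher and 0.513% lower. The groups did not overlap for 6 higher and 0 lower members, against 17.4% and 9.63% of all genes, and Ccl5 and Ccl25 are the 2 of these 6 that were not called. The median member differed by 0.55 and the median gene by 0.10. Among all genes 276 were higher and 54 lower, and after quantile normalization 144 and 73.

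Ccl11 was 13.3, 14.3 and 15.0 FPKM in Lgr5-DTR and 2.67, 5.20 and 2.45 in wild type luminal cells. The Lgr5-DTR libraries were tightly grouped and all above the wild type ones, with a ratio of means of 4.14 and a log2 difference of 1.83 (SE 0.25, 95% interval 1.27 to 2.39, adjusted p = 0.00882, limma). Ccl2 was 23.6, 19.6 and 14.3 against 3.70, 5.70 and 7.65, and differed by 1.61 (SE 0.27, adjusted p = 0.0190, limma). Cxcl10 was 26.8, 19.4 and 53.3 against 8.08, 8.10 and 8.37, and differed by 1.77 (SE 0.32, adjusted p = 0.0243, limma). Its wild type libraries are almost equal, so the spread is nearly all in the Lgr5-DTR group.

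Cxcl14 was 22.9, 13.4 and 6.11 FPKM in Lgr5-DTR and 1.68, 2.56 and 1.19 in wild type luminal cells. The groups do not overlap although Lgr5-DTR libraries differed widely, and the log2 difference was 2.29 (SE 0.41, adjusted p = 0.0254, limma). Without wild type luminal replicate 3 none of the 10360 genes tested was called, the 4 ligands included (adjusted p up to 0.127 over the 4, limma). The Ccl2, Cxcl10 and Cxcl14 calls were also lost without wild type replicate 2, those of Ccl2 and Cxcl10 without Lgr5-DTR replicate 1, and that of Cxcl14 without Lgr5-DTR replicate 2. Each kept its direction in every such fit.

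The inflammatory ligands Ccl3, Ccl4 and Ccl5 were highest in 1 library, Lgr5-DTR luminal replicate 1, at 6.23, 15.1 and 11.6 FPKM. In the other 2 Lgr5-DTR luminal libraries Ccl5 was 3.13 and 3.62, still above the wild type range of 0.948 to 1.62 (log2 difference 1.41, adjusted p = 0.0902, limma). Ccl7, which in stromal cells was expressed beside Ccl2, was 7.02, 2.31 and 2.99 in Lgr5-DTR and 2.83, 2.22 and 3.94 in wild type luminal cells, and the groups overlap. Cxcl16, the leading luminal ligand, was 48.6, 34.5 and 18.5 against 30.4, 10.7 and 9.02 and did not pass (log2 difference 1.07, interval -0.08 to 2.22, adjusted p = 0.248, limma). It was called higher without wild type luminal replicate 1 (1.58, adjusted p = 0.0477, limma) and with the replicate block. Cx3cl1 was 15.0 to 15.6 against 12.8 to 20.1 FPKM, with a log2 difference of -0.05 (interval -0.49 to 0.39, adjusted p = 0.893, limma). Ccl21a and Ccl21b, ligands of Ccr7, reached 21.9 and 8.10 FPKM in Lgr5-DTR luminal libraries, but these near-identical copies share reads and their values are uncertain.

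**Figure D4:**
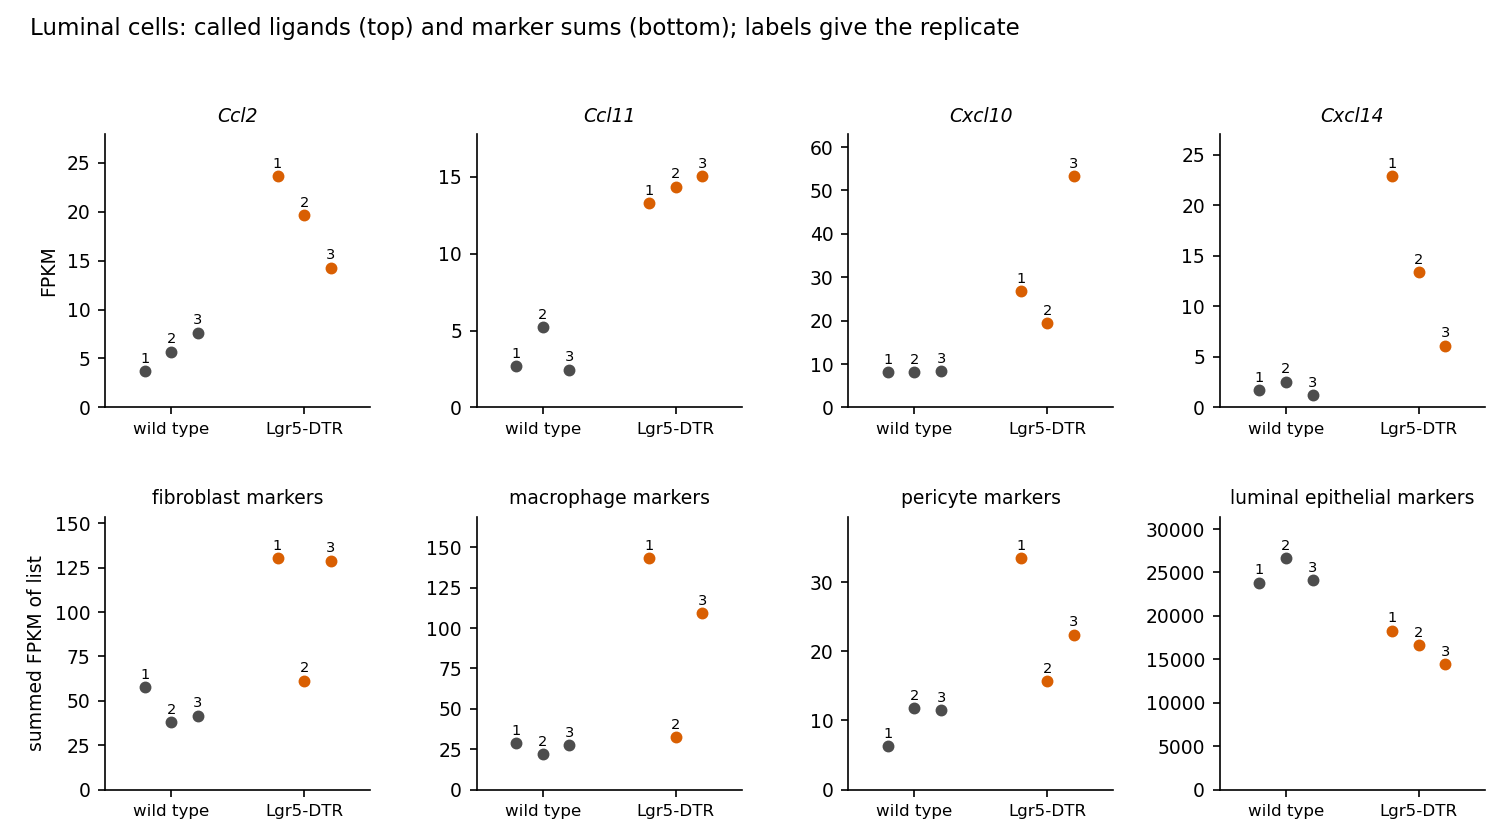
The upper panels give FPKM of the 4 ligands called higher in luminal cells, and the lower panels the summed FPKM of 4 marker lists in the same libraries, with 1 point per library, its replicate number beside it and both axes starting at 0. The 3 Lgr5-DTR libraries lie above the wild type ones for the ligands and for the fibroblast, macrophage and pericyte sums, and below them for the luminal sum.

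Some marker lists of other cells were also higher in Lgr5-DTR luminal libraries, while others overlapped between the groups. Endothelial markers summed to 9.12 to 14.0 FPKM in Lgr5-DTR and 8.27 to 14.3 in wild type, and smooth muscle markers to 15.5 to 61.1 against 10.2 to 47.8. Basal epithelial markers summed to 90.7 to 257.5 against 102 to 321, and erythrocyte markers to 83.2 to 288 against 121 to 667. Macrophage markers summed to 143, 32.6 and 109 FPKM in the 3 Lgr5-DTR luminal libraries and 21.9 to 28.7 in wild type, and of 12 markers Lyz2 was called higher, at 29.3 ± 17.0 against 4.15 ± 0.937. Ptprc, carried by all leukocytes, was at 0.439 ± 0.406 and 0.0466 ± 0.0807 FPKM. Fibroblast markers summed to 130, 61.4 and 129 against 38.0 to 57.7. Of 7, the collagens Col1a1 (32.2 ± 12.2 against 4.39 ± 1.11), Col1a2 (25.7 ± 12.6 against 5.30 ± 0.603) and Col3a1 (37.8 ± 13.7 against 15.2 ± 0.755) rose. Dcn was 10.8 ± 4.07 against 20.5 ± 12.3 and was not called, and Dpt, Lum and Pdgfra were at or under 0.321 FPKM in every luminal library. Pericyte markers summed to 15.7 to 33.4 against 6.24 to 11.8, with Kcnj8 called, and Schwann cell markers to 59.3 to 128 against 35.9 to 50.7, with Sox10 called. Luminal epithelial markers summed to 14440 to 18300 against 23840 to 26640, with the secretory gene Pbsn called lower. Of 13 alternatives the calls were kept in 6 (Lyz2), 10 (Col1a1), 8 (Col1a2), 4 (Col3a1), 10 (Kcnj8), 10 (Sox10) and 8 (Pbsn). The part of these shifts in the ligand rises was not tested.

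Of the lists around the ligands, 1 of 17 NF-kB genes in luminal cells was higher, Nfkbiz at 15.7 ± 5.12 against 3.22 ± 1.75 FPKM (n = 3 each). Of 12 inducing cytokines and receptors 1 was higher, Il1rn at 6.33 ± 1.70 against 1.37 ± 0.774, which passed the filter only through the Lgr5-DTR group. Of 15 signal transducers Rgs2, which dampens G protein signals, was higher at 26.8 ± 4.20 against 11.1 ± 2.17. These single calls stand beside 2.62% of all genes called higher, and all 3 were lost without wild type luminal replicate 2 or 3. None of these lists had a gene called lower in luminal cells, and the median log2 difference was 0.69 for the NF-kB list and 0.53 for the cytokine list, beside 0.10 over all genes.

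**Figure D5:**
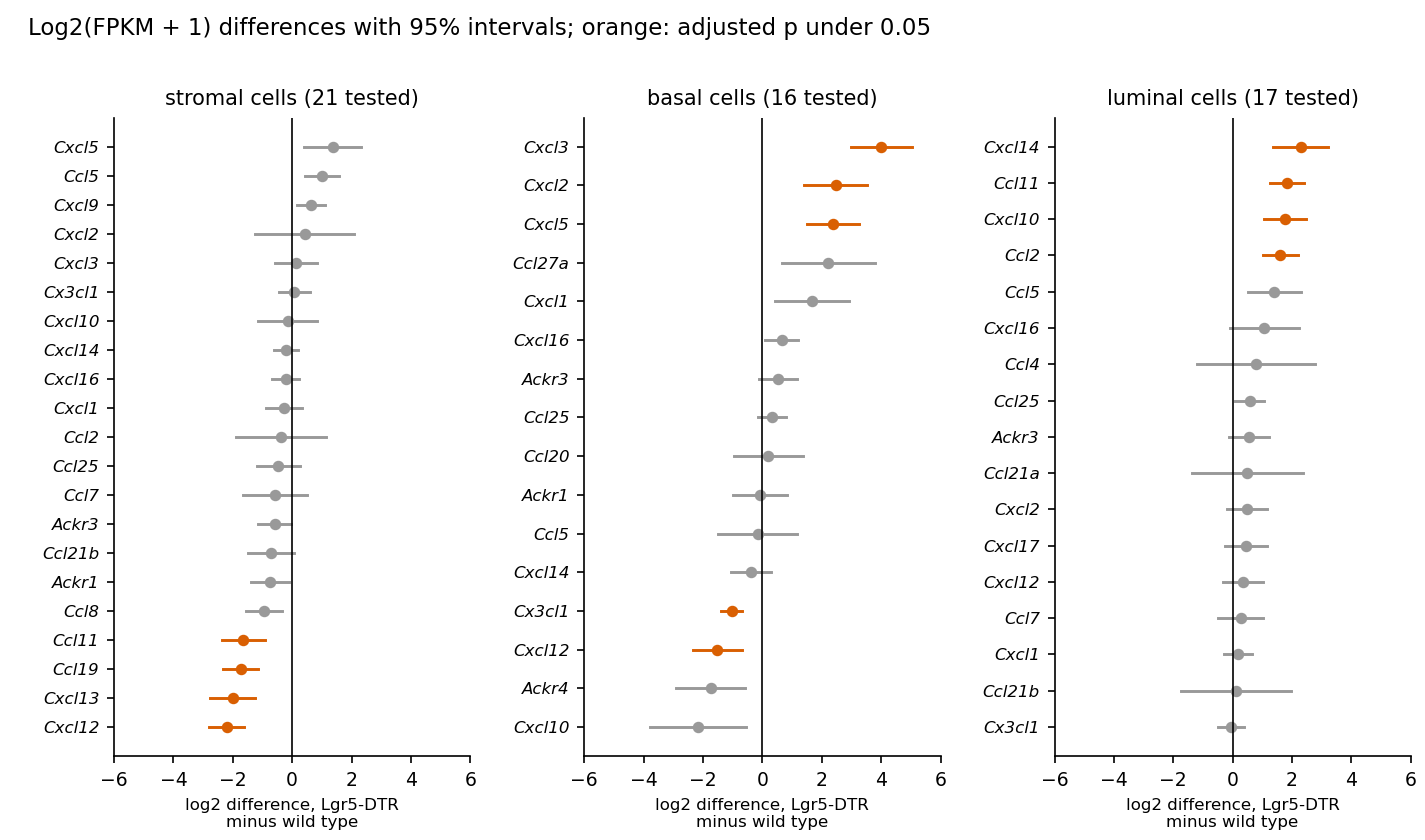
Difference on the log2(FPKM + 1) scale, Lgr5-DTR minus wild type, for every member tested in stromal (21), basal (16) and luminal cells (17), with bars for 95% intervals and called members in orange. Called members are all negative in stromal cells, all positive in luminal cells and of both signs in basal cells.

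The populations were then compared in the size of their genotype difference, by interaction over genes tested in both. For stromal against luminal cells 3 of 14 members were called, all with a lower difference in stromal cells, as were 2.43% of all genes, while 0.0756% had a higher one. Ccl11 differed by -3.48 (SE 0.45, adjusted p = 0.000747, limma), being lower in Lgr5-DTR stromal and higher in Lgr5-DTR luminal cells. Cxcl12 differed by -2.55 (SE 0.42, adjusted p = 0.00503, limma); in luminal cells it was 4.07 ± 1.44 against 3.03 ± 1.27 FPKM. Cxcl14 differed by -2.50 (SE 0.44, adjusted p = 0.00732, limma).

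For basal against luminal cells 3 of 10 were called, all with a lower difference in basal cells, as were 3.18% of all genes, while 1.09% had a higher one. Cxcl14 differed by -2.67 (SE 0.55, adjusted p = 0.0188, limma), being 3.96 ± 1.72 against 5.37 ± 1.68 FPKM in basal cells. Cxcl10 differed by -3.93 (SE 0.93, adjusted p = 0.0386, limma) and Cx3cl1 by -0.98 (SE 0.24, adjusted p = 0.0376, limma). With 1 library left out at a time, the last 2 calls each held in 3 of 12 fits (adjusted p up to 0.102, limma), and that of Cxcl14 in 9 of 12 (up to 0.0559). Only Cxcl10, Cxcl12, Cxcl14, Ccl11, Cx3cl1 and Cxcl3 were thus called in any interaction. Of these calls, those of Cxcl10 and Cx3cl1 depended on single libraries, and the basal filter favoured the direction of Cxcl3.

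The remaining members were low. Ccl25, Ccl20, Cxcl17 and Ccl27a of the 6 mucosal chemokines reached 1 FPKM. Ccl27a was at or above 5.79 FPKM in the 3 Lgr5-DTR basal libraries and 5.97 in wild type basal replicate 1. It was listed at 0 in the other wild type basal, all stromal and all luminal libraries. The gene overlaps Il11ra1 and has a near-identical copy. It was called higher only without wild type basal replicate 1, where only Lgr5-DTR libraries met the filter. Most of the 28 members that no library brought to 1 FPKM were classical receptors. In all, 27 members were tested in at least 1 population, 11 were called in at least 1, and for each of the 13 calls every Lgr5-DTR library lay on one side of every wild type library. That separation comes from the same values as the calls and adds no support to them. Of all genes 0.0655% were called higher and 1.10% lower in stromal, 6.50% and 4.46% in basal, and 2.62% and 0.513% in luminal cells. Groups without overlap were 1.80% and 9.39%, 17.5% and 13.7%, and 17.4% and 9.63%, in the same order.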

How the data were processed

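RNA of sorted cells had been amplified with a low-input full-length kit and sequenced, per the labels' protocols. The authors deposited an FPKM for each RefSeq transcript, made with TopHat2 and Cufflinks on mm10, per the submitters' processing notes, with versions not given in the sources used here. Each deposited table also holds a read coverage signal, per the file headers, used here only for depth. The tables hold no counts, so precision comes from the replicates.

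FPKM were summed over the transcripts of a symbol. Each population was fitted with limma 3.58.1 (R 4.3.3; trend and robust) on log2(FPKM + 1), a scale that understates changes of low genes, over genes with at least 3 libraries at 1 FPKM and no failed or capped estimate, with Benjamini-Hochberg adjustment over all genes tested and calls at 0.05. The wild type populations were 3 contrasts of 1 fit of 9 libraries, and interactions used 2 populations. The median SE of a log2 difference over all genes was 0.258 for the stromal, 0.196 for the basal and 0.228 for the luminal comparison. The code was tested on simulated data. Python 3.11.15 with pandas 2.3.3 and matplotlib 3.10.9 read the files and drew the figures.

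The members, lists and tests were chosen with earlier results of these data known. Full values are given for members called in any population, the 4 of smallest p in each, the 3 of highest mean in each group and the 3 of smallest interaction p, and other members are given by level. In the lists, up to 4 called genes per comparison are named. Members that overlap another gene or have a copy are called uncertain, since Cufflinks divides reads by estimation. In 7 libraries the tables carried a low-data status that no source used here explains, and this processing set was a covariate in an alternative fit. The alternatives are given at the end.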

Additional observations from a re-analysis of the deposited data

Results flagged for a closer look

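Values of the 14 named members in the 4 Lgr5-DTR stromal libraries were checked for a library apart from the others by Dixon's criterion, which chance meets in about 1 of 20 groups, and 2 met it. Cxcl12 was 84.38 FPKM in replicate 1 and 73.73 to 75.04 in the other 3, all far below the wild type libraries. Ccl19 was 0.0307 FPKM in replicate 1 and listed at 0 in the other 3, and with 3 values at 0 any other value meets the criterion.

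The 7 differences of the genotype effect between populations that passed the interaction test in limma were all negative, which means a lower Lgr5-DTR minus wild type difference in the first population named. For stromal against basal cells it was Cxcl3 at -3.88, a direction that the basal filter favoured. For stromal against luminal cells they were Ccl11 at -3.48, Cxcl12 at -2.55 and Cxcl14 at -2.50. For basal against luminal cells they were Cxcl10 at -3.93, Cxcl14 at -2.67 and Cx3cl1 at -0.98. Cxcl3 (13 of 13 alternatives) and the 3 of stromal against luminal cells (16 of 16 each) kept their call in all alternatives in which they were tested, whereas Cx3cl1 and Cxcl10 kept it in 5 of 15 each and Cxcl14 of basal against luminal cells in 12 of 15.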

How the results depend on the processing

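No called member changed direction under any alternative. In stromal cells Cxcl12 stayed past the threshold in 14 of 14 alternatives and Ccl19 in the 10 of 10 in which it was tested (not without a wild type library or with only the transcript of highest mean), Cxcl13 in 8 of 14 and Ccl11 in 3 of 14. In basal cells Cx3cl1 kept it in 13 of 13, as did Cxcl3 and Cxcl5, whose direction the filter fixed, Cxcl2 in 8 and Cxcl12 in 5 of 13, and in luminal cells Ccl11 in 11, Ccl2 and Cxcl10 in 9 each and Cxcl14 in 8 of 13. With no filter on low values, which adds genes to the adjustment, 2 members were lower in stromal, 1 lower in basal and 0 higher in luminal cells, and 2 were lower in wild type stromal than luminal cells. With the processing set as a covariate 2 were lower in stromal and 1 in basal cells, and with only the transcript of highest mean 2 were lower in stromal cells. After quantile normalization 1 member was higher in the interaction of stromal and basal cells. The cause was not tested.

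With 1 library left out at a time, 1 to 4 members were lower and 0 to 1 higher in stromal, 2 to 5 higher and 1 to 4 lower in basal, and 0 to 5 higher in luminal cells. Between wild type populations the ranges were 9 to 10 higher and 4 to 5 lower (basal against luminal), 8 to 13 and 3 to 4 (stromal against basal), and 11 to 16 and 0 to 1 (stromal against luminal). In the interactions they were 0 to 2 higher and 0 to 2 lower (stromal against basal), 3 to 4 lower (stromal against luminal), and 0 to 2 higher and 0 to 4 lower (basal against luminal). Over all genes, calls ranged from 31 to 232 (125 with all libraries) in stromal, 290 to 2231 (1069) in basal and 0 to 876 (330) in luminal cells, the 0 without wild type luminal replicate 3. Without a filter, calls over all genes were 1 higher and 35 lower in stromal, 310 and 182 in basal, and 0 and 4 in luminal cells. With the processing covariate they were 3 and 46 in stromal and 488 and 262 in luminal cells.

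No label says that replicate numbers pair the samples across genotypes, and the values below do not settle whether they do. For each gene the mean of its group was subtracted, and these deviations were correlated between same-numbered libraries of both genotypes. The correlations were 0.38, 0.49 and -0.05 in stromal, -0.53, -0.23 and -0.40 in basal and 0.38, -0.12 and 0.26 in luminal cells. With the replicate block 2 members were higher and 5 lower in stromal, 2 higher and 1 lower in basal and 6 higher and 0 lower in luminal cells. In the interactions with the replicate block 1 was higher and 1 lower (stromal against basal), 5 lower (stromal against luminal) and 1 lower (basal against luminal). For wild type basal against luminal cells, with the title number as the block, 9 were higher and 5 lower. Over all genes the block gave 314 higher and 727 lower in stromal, 151 and 62 in basal, and 617 and 138 in luminal cells.

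Of results that were not called, the stromal difference of Cxcl10 became 0.038 after quantile normalization and ranged from -0.37 to 0.27 with 1 library left out. That of Ccl2 became 0.058 with the replicate block and ranged from -1.02 to 0.14, and that of Cx3cl1 in luminal cells became 0.017 with the processing covariate and ranged from -0.19 to 0.12. Quantile normalization put Pbsn at the top rank in both luminal groups (3.321e-15). It moved the median of all genes from -0.09 to 0.03 in stromal and from 0.10 to -0.04 in luminal cells, and from -0.14 to 0.03 between wild type basal and luminal and from 0.00 to -0.14 between stromal and basal cells. Scaling by trimmed mean factors gave 219 higher and 93 lower genes in luminal cells.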
